A study of Mus musculus with 24 samples.

Results

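Fbn1, Spon2 and Adamts4 are 3 genes of secreted matrix proteins whose RNA rose and fell over the day in mouse skin, and they were followed here across 3 schedules of restricted feeding. They were chosen by name, for a rhythm already known from the same 24 libraries, out of 29758 gene symbols, of which 15719 passed a filter on low counts. All 3 members passed that filter. Their exon rhythms, and the intron rhythms and differences in rhythm that go with them, are therefore given as descriptions with no test. Arntl, which encodes the clock activator BMAL1, and Nr1d1, the gene of the clock repressor REV-ERBα, served as references of clock phase.

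Fbn1 encodes fibrillin-1, the main subunit of the microfibrils that scaffold elastic fibres in the dermis and that hold latent TGF-beta and BMPs in the matrix. Spon2 encodes spondin-2 (mindin), a secreted protein of the extracellular matrix with a role in innate immune recognition. Adamts4 encodes a secreted metalloprotease, one of the aggrecanases, which cleaves large proteoglycans such as aggrecan and versican. In skin these proteins are made largely by cells of the dermis, and the skin has a circadian clock of its own that runs in keratinocytes, fibroblasts and hair follicle cells.

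RNA was sequenced from whole back skin of male wild-type C57BL/6NCrl mice about 8 weeks old, with resting (telogen) hair follicles. All mice lived under a cycle of 12 h light (from ZT0, lights on) and 12 h dark, ate regular chow and had food for 4 h a day: from ZT0 in the group ED, from ZT5 in MD and from ZT12 in EN. Each group had 8 libraries, 1 every 4 h from ZT0 to ZT28, and each library was made from the pooled RNA of 2 to 4 animals. No group fed freely. The labels do not say how animals were spread over pools, and p-values reflect the scatter of these pools around a fitted daily curve.

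Exon counts over all 29758 symbols, before the filter, ranged from 13091637 to 26052550 a library. Markers of dermal fibroblasts, keratinocytes, fat, vessels, muscle, nerve and immune cells were detected in the labelled skin, and none of the markers found was at 0 throughout. The pools ED ZT24 and EN ZT0 stood apart in 1 respect: their summed hair shaft and anagen follicle markers reached 740 and 1775 CPM (read counts scaled to library depth), against medians of 9.05 CPM in ED and 8.76 CPM in EN. In bulk tissue, fewer cells of a type and less RNA per cell cannot be told apart.

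Fbn1 (model uc008mco.1) lies on the minus strand of chromosome 2, from 125300594 to 125507993 in GRCm38 (mm10). Its longest coding transcript has 65 exons with a spliced length of 11971 bases, 5.77% of the transcribed span, so that most of the gene is intron. Spon2 (uc029vgz.1; chromosome 5, 33198184 to 33218455, minus strand, 6 exons) and Adamts4 (uc007dnn.1; chromosome 1, 171250421 to 171260637, plus strand, 9 exons) are short genes. The start of Fbn1 overlaps Gm9913 on the other strand over 2793 bases. The libraries were stranded and antisense reads were counted apart, as 0.0913% of the exon count of Fbn1, 0.277% of that of Spon2 and 11.9% of that of Adamts4.

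The promoter window of Fbn1 is shown beside one of Arntl because the RNA of both genes was rhythmic in every feeding group. Each window holds 250 bases before and 50 bases after a start site in RefSeq (GRCm38.p6), read along the gene's strand, Fbn1 at chr2:125506389-125506688 (minus) and Arntl at chr7:113207261-113207560 (plus). By the gene position given above, Fbn1 starts further upstream, at 125507993, so its window lies inside the gene as placed there. The table holds 2 overlapping windows of Arntl, and the one shown was picked because it holds a match. Capitals mark the only match to the motifs searched.
Fbn1: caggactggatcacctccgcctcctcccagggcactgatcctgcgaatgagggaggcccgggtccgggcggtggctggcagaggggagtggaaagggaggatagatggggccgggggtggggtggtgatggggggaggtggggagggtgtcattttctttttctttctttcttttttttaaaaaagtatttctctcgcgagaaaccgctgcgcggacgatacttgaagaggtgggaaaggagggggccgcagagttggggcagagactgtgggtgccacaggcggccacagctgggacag
Arntl: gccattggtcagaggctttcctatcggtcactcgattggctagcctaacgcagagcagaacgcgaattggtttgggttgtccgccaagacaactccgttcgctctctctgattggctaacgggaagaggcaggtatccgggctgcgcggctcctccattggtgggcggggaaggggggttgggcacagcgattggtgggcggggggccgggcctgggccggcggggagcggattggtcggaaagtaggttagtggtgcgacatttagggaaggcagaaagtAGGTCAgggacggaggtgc

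Both strands were searched for the E-box CACGTG, the related E-prime box CACGTT, the ROR and REV-ERB recognition sequence AGGTCA and the D-box TTATGTAA. The E-box and the E-prime box share all letters but the last, and no other pair of these motifs shares a core. The Fbn1 window held 0 matches, the Arntl window shown 1, AGGTCA at bases 282 to 287, and the other Arntl window 0. Among all 32851 promoter windows of the table, 7.15% held the E-box, 4.68% the E-prime box, 16.3% AGGTCA and 0.938% the D-box. GC content was 60.3% in the Fbn1 window and 61.7% in that of Arntl, against a median of 52.7% over all windows.

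The 3 genes stood at very different levels. Mean exon RPKM (reads scaled to library depth and transcript length, which allows levels of genes to be compared) was 79.6 for Fbn1, 12.1 for Spon2 and 1.48 for Adamts4. Of the tested genes, 96.9% had a lower mean RPKM than Fbn1, 65.2% than Spon2 and 18.2% than Adamts4. The exon counts behind a single library ran from 4617 to 27172 for Fbn1, from 60 to 1723 for Spon2 and from 13 to 235 for Adamts4, so that the last gene carries the largest counting error.

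Fbn1 RNA was high from ZT0 to ZT8 in ED, around the start of the light phase in EN and late in the dark phase in MD. In ED its exon level was lowest at ZT12 (460 CPM) and highest at ZT0 (967 CPM), with a median of 862 CPM. It was still 957 CPM at ZT4 and 935 CPM at ZT8 there, and 790 CPM in the second pool at lights on, ZT24. In MD it was lowest at ZT8 (356 CPM) and highest at ZT20 (1334 CPM), with a median of 749 CPM. In EN it was lowest at ZT12 (320 CPM) and highest at ZT24 (1138 CPM), with a median of 929 CPM. The highest library was 2.10 times the lowest in ED, 3.74 times in MD and 3.55 times in EN, and the ranges of the groups overlapped throughout. The low libraries were neighbours in time, ZT12 and ZT16 in ED and EN and ZT8 and ZT12 in MD.

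A cosine of 24 h fitted to log2 CPM gave Fbn1 an amplitude (mean to peak) of 0.56 ± 0.0892 in ED, 0.95 ± 0.0951 in MD and 0.91 ± 0.0888 in EN (standard error, 8 pools each). The fitted peaks stood at ZT3.24 ± 0.650 h in ED, ZT21.4 ± 0.359 h in MD and ZT1.23 ± 0.400 h in EN. The peak thus came 3.24 h after food was opened in ED, 16.4 h after it in MD and 13.2 h after it in EN. The amplitude in ED was the smallest of the 3, by 0.39 ± 0.130 against MD and 0.36 ± 0.126 against EN, on the log2 scale.

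**Figure D1:**
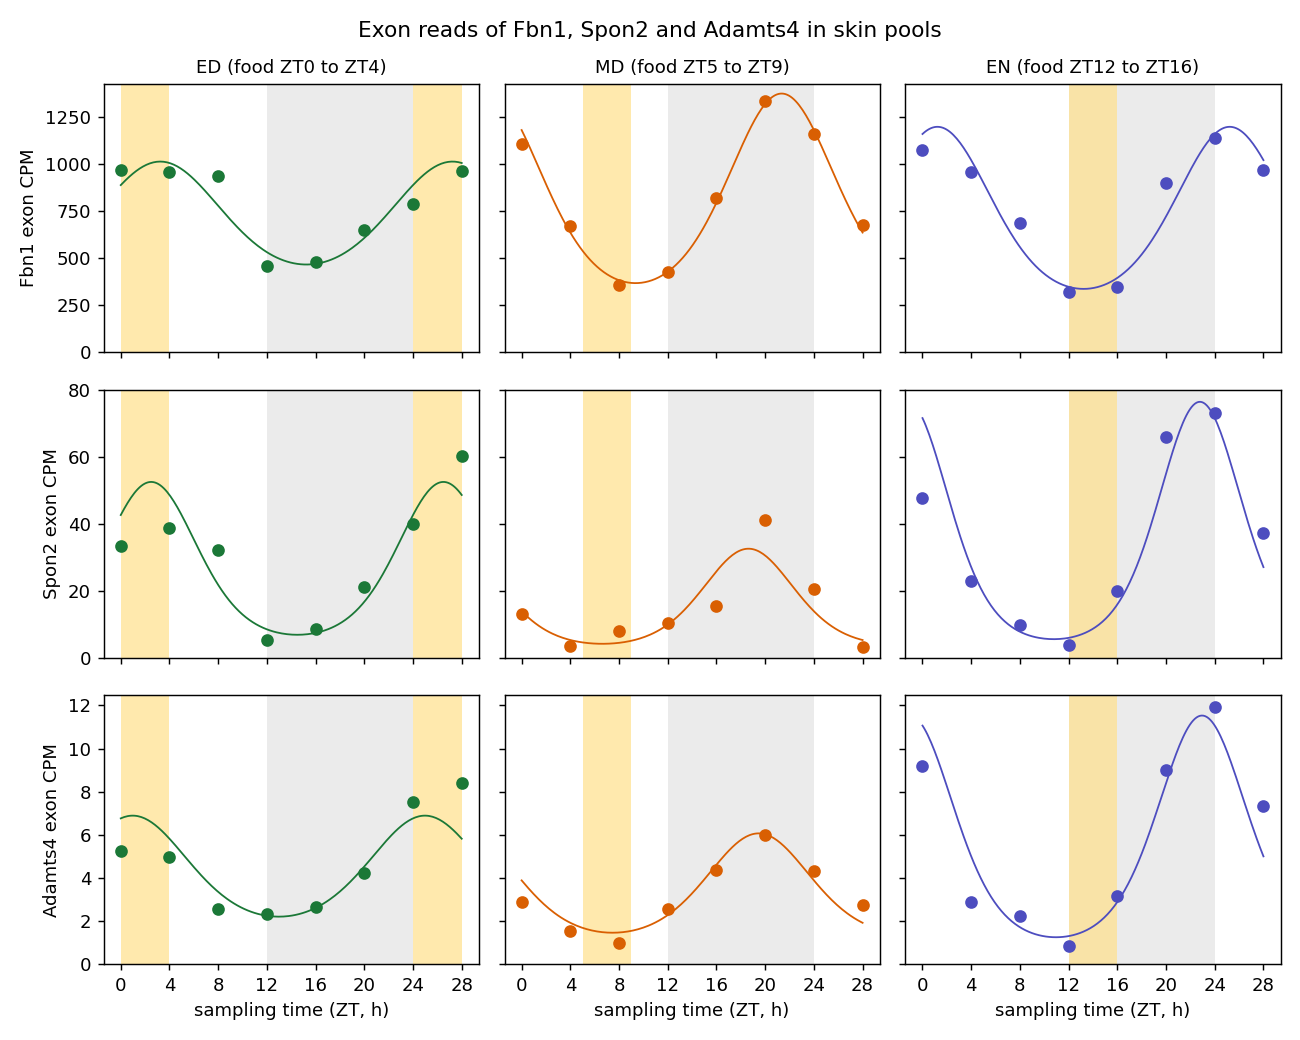
Exon CPM of Fbn1, Spon2 and Adamts4 (rows) against sampling time in ED, MD and EN (columns); each point is 1 pool, the line is the fitted 24 h curve on the log2 scale, yellow marks access to food and grey the dark phase. Fbn1 in MD runs from 356 CPM at ZT8 to 1334 CPM at ZT20, while in ED and EN the low point of all 3 genes is at ZT12.

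The introns of Fbn1, which are read from RNA that is not yet spliced, followed an earlier curve. Its intron level ran from 109 CPM at ZT12 to 528 CPM at ZT0 in ED, from 135 CPM at ZT28 to 470 CPM at ZT20 in MD and from 105 CPM at ZT12 to 497 CPM at ZT24 in EN. The intron counts were deep, from 1511 to 12115 a library. In ED at ZT8 the intron level had already dropped to 176 CPM, 33.3% of its highest value, while the exon level was still 935 CPM, 96.7% of its highest value.

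The fitted intron peaks of Fbn1 stood at ZT23.3 ± 0.353 h in ED, ZT17.5 ± 0.382 h in MD and ZT21.7 ± 0.299 h in EN. The exon peak followed the intron peak by 3.94 ± 0.708 h in ED, by 3.81 ± 0.501 h in MD and by 3.50 ± 0.472 h in EN, so the delay kept within its standard errors in the 3 groups. For Arntl the same delay was 1.06 h, 0.794 h and 0.800 h, and for Nr1d1 it was 0.552 h, 0.219 h and 0.139 h. The intron amplitude of Fbn1 was 1.02 ± 0.0932 in ED, above the exon amplitude there, and 0.93 ± 0.0948 in MD and 1.17 ± 0.0961 in EN. Scaling by factors taken from the intron rows moved the ED values most, to an amplitude of 0.85 and a peak at ZT23.8.

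Among the genes called rhythmic on both exon and intron reads, the delay of Fbn1 lay in the upper part of the range. The median delay was 0.710 h over 72 such genes in ED, 0.806 h over 32 in MD and 1.27 h over 43 in EN, with Fbn1 itself among them. A longer delay than that of Fbn1 was seen for 6, 1 and 3 of these genes. Genes longer than 100 kb, as Fbn1 is, had median delays of 1.44 h (7 genes), 0.794 h (9 genes) and 1.82 h (10 genes), and the shorter ones 0.789 h, 0.819 h and 1.25 h.

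**Figure D2:**
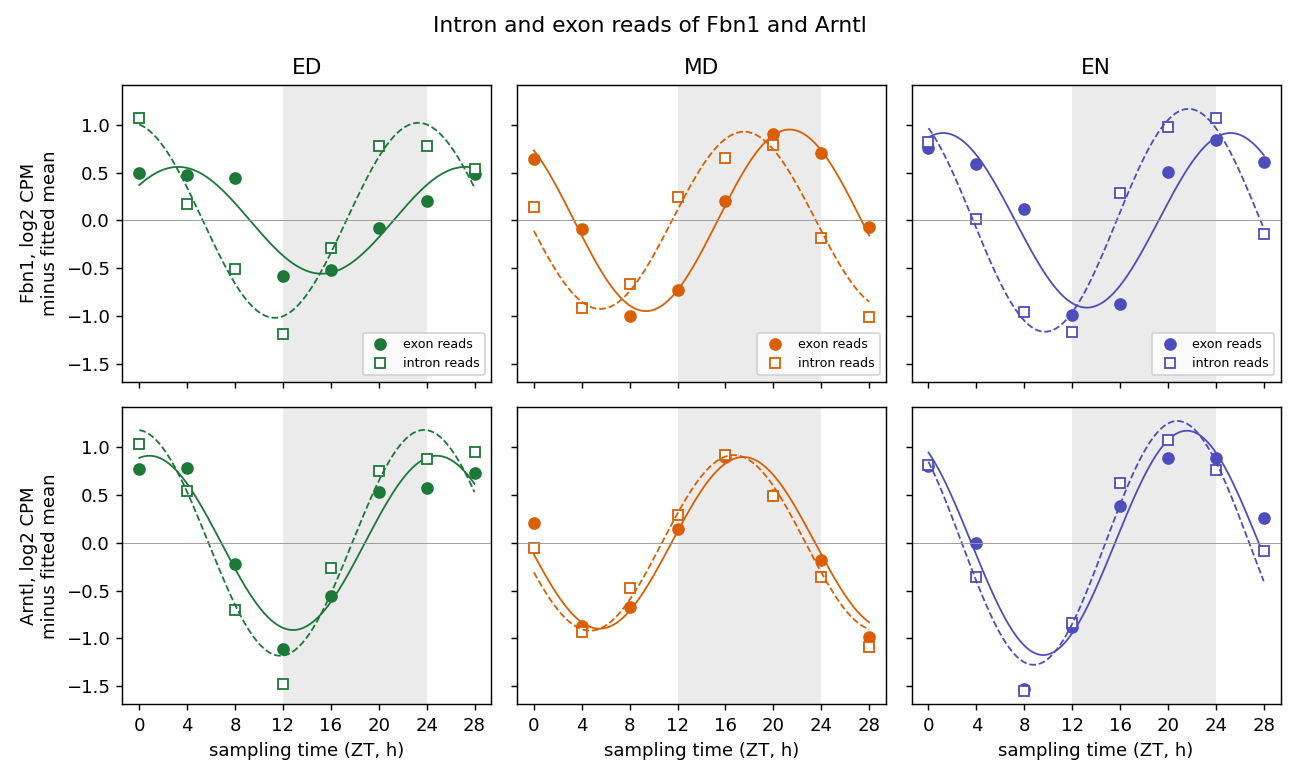
Exon (filled circles, solid curves) and intron reads (open squares, dashed curves) of Fbn1 and Arntl in each feeding group, as log2 CPM minus the fitted mean, against sampling time; grey marks the dark phase. The dashed curve of Fbn1 leads the solid one by 3.50 to 3.94 h, and that of Arntl by 0.794 to 1.06 h.

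Spon2 had the widest swing of the 3 genes. In ED its exon level was lowest at ZT12 (5.36 CPM) and highest at ZT28 (60.3 CPM), with a median of 32.9 CPM. In MD it was lowest at ZT28 (3.44 CPM) and highest at ZT20 (41.3 CPM), with a median of 11.9 CPM. In EN it was lowest at ZT12 (3.82 CPM) and highest at ZT24 (73.1 CPM), with a median of 30.3 CPM. The highest library was 11.3, 12.0 and 19.1 times the lowest in the order ED, MD and EN. The ranges overlapped, and in MD a single library, ZT20, stood well above the next at 20.7 CPM.

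The amplitude of Spon2 was 1.45 ± 0.284 in ED, 1.46 ± 0.305 in MD and 1.87 ± 0.297 in EN on the log2 scale. Its peaks stood at ZT2.50 ± 0.808 h, ZT18.6 ± 0.750 h and ZT22.8 ± 0.601 h in the same order. Of all tested genes, 0.0318% in ED, 0.121% in MD and 0.0445% in EN had a larger fitted amplitude. For Fbn1 these shares were 3.79%, 0.528% and 0.687%, and for Adamts4 0.942%, 0.401% and 0.108%. The choice of the genes for their rhythm in these libraries favours such places, so nothing is read from them. Intron reads of Spon2 were few, 629 over all libraries and 1 in MD at ZT4, and gave peaks at ZT1.25, ZT17.3 and ZT21.5 with amplitudes of 1.36, 1.36 and 1.65. The exon peak followed by 1.25 ± 0.965 h, 1.31 ± 0.927 h and 1.25 ± 0.748 h, each of the size of its error or little more.

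Adamts4, the protease, was expressed at a low level and moved with Spon2. In ED its exon level was lowest at ZT12 (2.32 CPM) and highest at ZT28 (8.40 CPM), with a median of 4.60 CPM. In MD it was lowest at ZT8 (1.01 CPM) and highest at ZT20 (5.99 CPM), with a median of 2.82 CPM. In EN it was lowest at ZT12 (0.828 CPM) and highest at ZT24 (11.9 CPM), with a median of 5.25 CPM. The swing between the lowest and highest library was 3.63 times in ED, 5.96 times in MD and 14.4 times in EN, and the ranges overlapped.

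The amplitude of Adamts4 was 0.82 ± 0.214 in ED, 1.03 ± 0.231 in MD and 1.60 ± 0.222 in EN. The peaks stood at ZT0.981 ± 1.07 h, ZT19.5 ± 0.794 h and ZT23.0 ± 0.530 h. Its introns, with 3 to 42 reads a library, peaked at ZT1.21, ZT17.4 and ZT21.8. The exon-to-intron delay of -0.23 ± 1.80 h, 2.04 ± 2.25 h and 1.19 ± 0.893 h was too imprecise to set against that of Fbn1. Antisense reads at Adamts4 ran from 1 to 26 a library.

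At an adjusted p under 0.05 (edgeR quasi-likelihood test, Benjamini-Hochberg), a rhythm was called for 0.719% of the tested genes in ED, for 0.942% in MD and for 1.06% in EN. Fbn1 and Spon2 were among them in all 3 groups, and Adamts4 in EN. In ED and MD Adamts4 lay outside that threshold, with the amplitudes of 0.82 and 1.03 just given. For a different rhythm between 2 groups 0.35% of genes passed for MD against ED, 0.401% for EN against ED and 0.35% for EN against MD. Fbn1 was among them for MD against ED and for EN against MD, Spon2 for MD against ED, and Adamts4 in no pair. Since the genes were chosen for these rhythms, nothing is read from these memberships.

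The peaks of the 3 genes moved between feeding groups in the same direction as those of the clock genes. For Fbn1 and Adamts4 the shifts were smaller than those of Arntl and Nr1d1 in each pair, some of them within the standard errors. The exon peak of Fbn1 differed by -5.89 ± 0.743 h for MD minus ED, by -2.02 ± 0.763 h for EN minus ED and by 3.87 ± 0.537 h for EN minus MD. For Spon2 the differences were -7.87 ± 1.10 h, -3.72 ± 1.01 h and 4.15 ± 0.961 h, and for Adamts4 -5.51 ± 1.33 h, -2.03 ± 1.19 h and 3.49 ± 0.954 h. Those of Arntl were -7.36 ± 0.789 h, -3.27 ± 0.701 h and 4.09 ± 0.688 h, and those of Nr1d1 -7.95 ± 0.483 h, -3.43 ± 0.414 h and 4.52 ± 0.418 h. Each pair of groups shares its libraries with the other pairs, so the 3 differences of a gene are not independent. The order of the groups was the same for all 5 genes: MD first, then EN, then ED.

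Relative to Arntl, Fbn1 was the latest of the 3 genes. Its exon peak followed that of Arntl by 2.40 ± 0.970 h in ED, by 3.87 ± 0.701 h in MD and by 3.65 ± 0.628 h in EN. Spon2 followed Arntl by 1.65 ± 0.914 h, 1.15 ± 0.859 h and 1.20 ± 0.675 h, and Adamts4 by 0.134 ± 1.31 h, 1.98 ± 1.04 h and 1.38 ± 0.730 h. The difference in peak between Spon2 and Adamts4 was below its standard error in MD and EN and little above it in ED, at -1.52 ± 1.20 h, 0.835 ± 0.971 h and 0.175 ± 0.710 h for Adamts4 minus Spon2. Spon2 came before Fbn1 by more than its error in MD (-2.72 ± 0.779 h) and EN (-2.45 ± 0.659 h), and by less than it in ED (-0.745 ± 0.920 h).

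On intron reads the peaks of Spon2 and Fbn1 lay within their standard error of each other in MD and EN. The intron peak of Fbn1 stood -0.48 ± 0.391 h from that of Arntl in ED, at 0.853 ± 0.479 h in MD and at 0.941 ± 0.343 h in EN. The introns of Spon2 peaked 1.95 ± 1.19 h after those of Fbn1 in ED, and at -0.22 ± 1.14 h and -0.20 ± 0.922 h from them in MD and EN. Measured from Nr1d1, exon peaks stood at -6.14, -4.08 and -4.73 h for Fbn1, at -6.89, -6.81 and -7.18 h for Spon2 and at -8.40, -5.97 and -7.00 h for Adamts4, in the order ED, MD and EN.

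**Figure D3:**
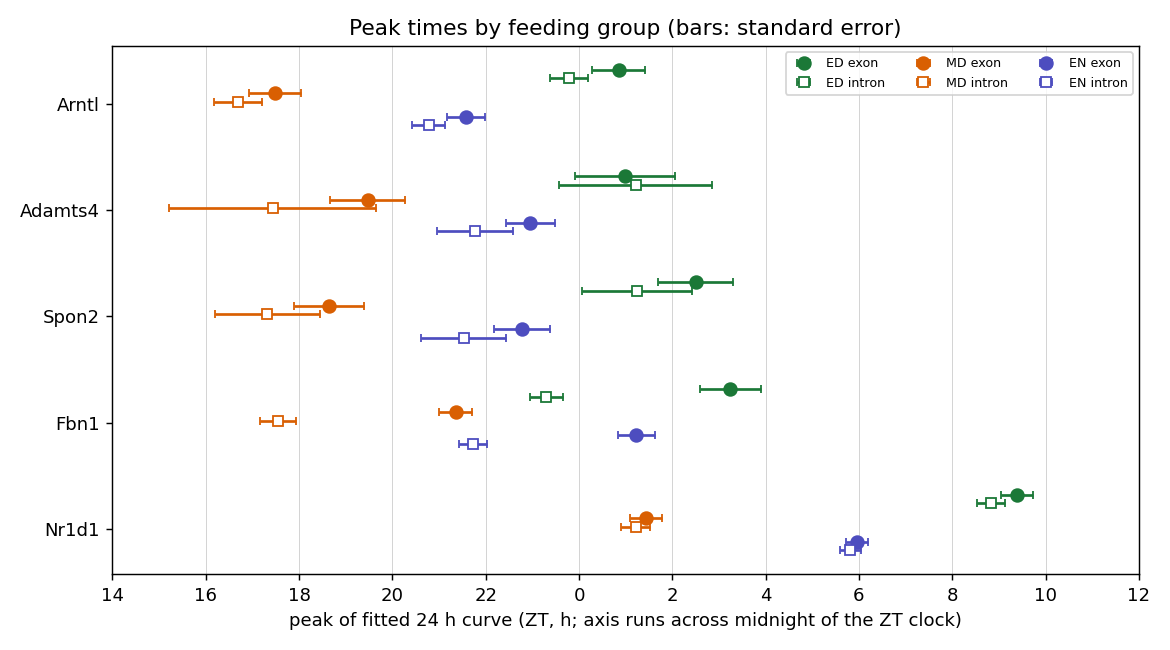
Fitted peak times of Arntl, Adamts4, Spon2, Fbn1 and Nr1d1 (rows) on exon (filled) and intron reads (open) in ED, MD and EN; bars are standard errors, and the axis in hours of ZT runs across lights on. Exon peaks of every gene come first in MD, and Fbn1 shows the widest gap between its open and filled symbols.

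Mean levels over the day, which the choice of genes did not use, were then compared between feeding groups. By the main test Spon2 had a lower mean level in MD than in either other group, with calls that did not hold in every setting. Its mean level was 30.0 ± 17.9 CPM in ED, 14.6 ± 12.3 CPM in MD and 35.2 ± 25.5 CPM in EN (SD over the 8 sampling times, n = 8). Here and in the counts below, ZT0 and ZT4 weighed more than other clock times, since ZT24 and ZT28 repeat them. The highest library of ED and the lowest of MD, at 60.3 and 3.44 CPM, were both ZT28. The log2 difference was -0.69 ± 0.301 for MD minus ED (edgeR quasi-likelihood adjusted p = 0.0499), with the MD library the higher one at 3 of 8 times. It was 0.81 ± 0.301 for EN minus MD (adjusted p = 0.0176), with the EN library the higher one at 7 of 8 times. For EN minus ED it was 0.12 ± 0.301 (adjusted p = 0.947). Since the groups differ in phase, a comparison at the same ZT sets different parts of the curve side by side.

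Such calls were common in the data, and those of Spon2 lay close to the threshold. A different mean level was called for 23% of genes for MD against ED (11.2% higher and 11.8% lower in MD) and for 30.2% for EN against MD (15.9% higher and 14.4% lower in EN). For EN against ED it was called for 0 genes (0%) by edgeR, with 961 at an unadjusted p under 0.05 and 6 by DESeq2. The Spon2 call for MD against ED was lost without any 1 of 15 libraries (ED ZT8, ZT16, ZT20, ZT24 or ZT28, MD ZT0, ZT4, ZT12, ZT16 or ZT28, EN ZT4, ZT8, ZT16, ZT20 or ZT24), with log2 differences over all single omissions of -0.92 to -0.44. The call for EN against MD was lost without MD ZT16 (0.56, adjusted p = 0.0994) or EN ZT16 (0.70, adjusted p = 0.064). On intron reads, where 18.3% and 39.4% of rows were called in these pairs, the Spon2 differences were -0.68 ± 0.412 (adjusted p = 0.234) and 0.75 ± 0.412 (adjusted p = 0.0704).

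Markers of several cell types also differed between the MD pools and the others. The summed level of 13 dermal fibroblast markers, none at 0, was 18974 to 29338 CPM in MD, 29993 to 49493 CPM in ED and 28941 to 55031 CPM in EN. Of these 13, 5 were lower and 1 higher in MD than in ED (edgeR adjusted p under 0.05). Of 9 adipocyte markers, 7 were lower in MD, and of 9 skeletal muscle markers, 7 were higher. Col1a1 and Col3a1 made up 81.6% to 92.0% of that sum in single libraries. The other 11 markers summed to 3144 to 4179 CPM in MD, 2974 to 4601 CPM in ED and 3906 to 5083 CPM in EN, and those ranges overlapped. The median log2 difference over the 13 was -0.17 for MD minus ED and 0.28 for EN minus MD. The part of this in the Spon2 result was not tested.

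The labels give each library 1 of 8 L codes, whose meaning they do not state. Each code held 3 libraries, neighbours in sampling time within a feeding group except in 2 codes that held libraries of 2 groups. A model with the code as a term, added after seeing the data, kept 8 residual degrees of freedom. In it the Spon2 differences were -0.27 ± 1.33 for MD minus ED and -0.23 ± 2.00 for EN minus MD (edgeR adjusted p = 0.999 and 0.999), so that both calls were lost and the second turned in direction. A different mean level was then called for 0 genes in each of the pairs MD against ED and EN against MD (882 and 688 at an unadjusted p under 0.05), so no call of a mean level given here held with that term. For Adamts4 the difference was -1.83 ± 0.518 for EN minus ED and -1.85 ± 0.778 for EN minus MD (adjusted p = 1 and 0.99). The fitted peaks of the members moved, with those of Fbn1 at ZT4.58 ± 1.79 h, ZT22.0 ± 1.34 h and ZT1.30 ± 0.583 h in ED, MD and EN, and MD again came first, then EN, then ED, for all 3 genes.

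Fbn1 and Adamts4 did not pass the test of mean level in any pair. Fbn1 averaged 776 ± 218 CPM in ED, 819 ± 353 CPM in MD and 799.6 ± 316 CPM in EN (SD, n = 8, with ZT0 and ZT4 again weighing more). Its log2 differences were 0.05, -0.11 and -0.16, each ± 0.0938, for MD minus ED, EN minus ED and EN minus MD (adjusted p = 0.786, 0.873 and 0.231, edgeR). On the deposited RPKM scale with 0.1 added the first and the last of these turned, to -0.18 and 0.09. Without EN ZT20 the last one passed, at -0.24 (adjusted p = 0.049). Adamts4 averaged 4.74 ± 2.29, 3.18 ± 1.63 and 5.82 ± 4.04 CPM, and its log2 differences were -0.39, -0.04 and 0.35, each ± 0.226 (adjusted p = 0.211, 0.994 and 0.177). For EN minus ED the log2 differences of Fbn1 and Adamts4 have the opposite sign to the differences of their mean CPM, and no direction is read from either.

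A second harmonic was also tested, a component of 12 h on top of the daily curve. Its adjusted p (edgeR quasi-likelihood, over the groups together) was 0.885 for Fbn1, 0.396 for Spon2 and 0.962 for Adamts4. It was called for 0 of 15719 genes (0%), with 797 at an unadjusted p under 0.05. DESeq2 called it for 99 genes, and gave adjusted p-values of 0.0576 for Fbn1, 4.32e-05 for Spon2 and 1 for Adamts4, so the call for Spon2 depends on the tool. The fitted 12 h amplitude of Spon2 was 0.50, 0.77 and 0.45 in ED, MD and EN, and those of Fbn1 and Adamts4 lay between 0.08 and 0.30.

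The pools taken at ZT24 and ZT28 repeat the clock times ZT0 and ZT4 and show how far a second pool at the same time differs. For Fbn1 the second pool differed by -0.29 to 0.08 on the log2 scale over the 6 such pairs. For Spon2 it differed by -0.11 to 0.70, and was lower only at ZT4 in MD. For Adamts4 the second pool was higher in all 6 pairs, by 0.37 to 1.31. Its differences at ZT4 of 1.31 in EN and 0.77 in MD exceeded the sizes below which 95% of all tested genes stayed there, 0.77 and 0.63. Fitted without the second day, the amplitudes of Adamts4 were 0.64, 1.14 and 1.53 in ED, MD and EN, with fitted peaks at ZT0.293, ZT18.8 and ZT22.5.

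The genes closest in pattern to each member were sought over the 24 libraries, as the smallest root mean square difference between group-centred, unit-scaled log2 CPM profiles among 14718 genes with a mean of at least 1 CPM. For Fbn1 they were Klhl13 (0.464), Nrcam (0.481), Fstl1 (0.531), Arhgap28 (0.535) and Mtx3 (0.558). Fstl1 encodes follistatin-like 1, a secreted glycoprotein, and Nrcam a neuronal cell adhesion molecule. For Spon2 they were Sh3pxd2b (0.449), Snx18 (0.454), Has2 (0.477), Cacna1g (0.493) and Adamts4 (0.528). Has2 is the main hyaluronan synthase of fibroblasts, and Sh3pxd2b encodes an adaptor of podosomes, the sites where cells degrade matrix. Cacna1g encodes a T-type calcium channel.

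For Adamts4 the closest were Cxcl14 (0.496), Spon2 (0.528), Cdc20 (0.572), Col5a3 (0.60) and Sh3pxd2b (0.606). Cxcl14 is a chemokine of skin, Cdc20 a regulator of mitosis and Col5a3 a chain of type V collagen. Spon2 and Adamts4 stood among each other's 5 nearest genes, while Fbn1 had Adamts4 at rank 26 (0.680) and Spon2 at rank 35 (0.70). Arntl ranked 7 for Spon2 (0.531), 12 for Adamts4 (0.638) and 387 for Fbn1 (0.947). The members were chosen for a rhythm in these same libraries, which favours close ranks among them and with Arntl. These ranks are therefore a description only.

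Most other genes of the pathways around the members did not pass the test of rhythm, but larger shares passed than of all genes. Over 6 lists with 133 tested genes besides the members, 2 passed in ED, 8 passed in MD and 6 passed in EN, which makes 14 different genes (30, 38 and 37 at an unadjusted p under 0.05). These are 1.5%, 6.02% and 4.51% of the 133, beside 0.719%, 0.942% and 1.06% of all tested genes, in lists put together with earlier results known. At an unadjusted p under 0.05 the shares were 22.6%, 28.6% and 27.8% of the 133, beside 14.9%, 15.7% and 10.8% of all tested genes. The median amplitudes of the lists lay between 0.13 and 0.27, beside 0.15, 0.15 and 0.13 over all genes in ED, MD and EN. The most abundant matrix genes, Col1a1 (RPKM 1809), Col1a2 (1536) and Col3a1 (1302), which encode the fibrillar collagens of the dermis, had amplitudes of 0.25, 0.23 and 0.21 in ED, and did not pass the test of rhythm in any group (edgeR adjusted p of 0.582 or more).

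Of 29 other genes of microfibrils and elastic fibres, 0 were rhythmic in ED by edgeR (8 unadjusted, 2 by DESeq2), 4 in MD and 1 in EN. Fbn2, which encodes fibrillin-2, the other fibrillin of the mouse, was the one called in 2 groups. Its exon level ran from 4.68 CPM at ZT4 to 26.8 CPM at ZT20 in MD and from 5.61 CPM at ZT12 to 24.8 CPM at ZT0 in EN, and from 10.6 CPM at ZT12 to 23.2 CPM at ZT24 in ED. Its amplitude was 1.17 ± 0.183 in MD with a peak at ZT20.0 (edgeR adjusted p = 0.00121) and 0.95 ± 0.171 in EN with a peak at ZT0.320 (adjusted p = 0.0083). In ED it was 0.37 ± 0.171 (adjusted p = 0.389). Fbn2 peaked -1.36 ± 0.641 h from Fbn1 in MD and -0.91 ± 0.813 h from it in EN.

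Eln encodes elastin, the protein that microfibrils organise into elastic fibres, and its level was lowest at ZT28 (65.2 CPM) and highest at ZT0 (212 CPM) in MD. Its amplitude was 0.69 ± 0.156 in MD with a peak at ZT21.3, -0.02 ± 0.825 h from that of Fbn1 (edgeR adjusted p = 0.0269). In ED and EN it was 0.57 ± 0.145 (adjusted p = 0.0916) and 0.48 ± 0.148 (adjusted p = 0.203), with peaks at ZT2.22 and ZT0.261. The Eln introns peaked earlier than its exons by 4.12 ± 1.04 h, 3.44 ± 0.835 h and 1.96 ± 1.13 h in ED, MD and EN, beside 3.94, 3.81 and 3.50 h for Fbn1. The other genes called in MD were Loxl4, a lysyl oxidase that crosslinks matrix (0.44 ± 0.0871, peak ZT0.234), and Adamtsl2, a microfibril-binding ADAMTS-like protein (0.83 ± 0.183, peak ZT13.7). The list's most abundant genes besides Fbn1, Efemp1 and Fbln2, both of the fibulin family, did not pass in any group.

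Of 12 other secreted proteins with spondin or thrombospondin repeats, 0 were rhythmic in ED and in EN by edgeR (2 and 3 unadjusted, 1 and 0 by DESeq2) and 2 in MD. These were Thbs1 (0.47 ± 0.0976, peak ZT0.434, edgeR adjusted p = 0.0338) and Thbs2 (0.55 ± 0.0896, peak ZT0.251, adjusted p = 0.00603), which encode the trimeric thrombospondins. Thbs2 peaked 2.90 ± 0.665 h after Fbn1 there. Both peaked about the change from dark to light, later than Spon2 in MD at ZT18.6. They were also higher in MD than in ED in mean level, by 0.39 and 0.54 on the log2 scale (edgeR adjusted p = 0.00521 and 0.000275), the opposite direction to Spon2. Of the 12 genes, 4 were called higher and 1 lower in this pair, beside 11.2% and 11.8% of all tested genes. With the L code as a term 0 genes were called.

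Of 21 other ADAMTS proteases, ADAMTS-like proteins and TIMP inhibitors, 0 were rhythmic in ED by edgeR (4 unadjusted, 2 by DESeq2), 1 in MD and 1 in EN. Adamts8 had an amplitude of 0.80 ± 0.167 in MD with a peak at ZT10.9 (edgeR adjusted p = 0.0423), a time at which Adamts4 was low. Timp3, a matrix-bound inhibitor of ADAMTS4 and related proteases, had an amplitude of 0.29 ± 0.0378 in EN with a peak at ZT10.6 (adjusted p = 0.0149), when Adamts4 in EN was near its lowest level at ZT12. In ED and MD the amplitude of Timp3 was 0.18 and 0.14 (adjusted p = 0.164 and 0.331). The abundant Timp2 (RPKM 151) and Adamts2, the procollagen N-proteinase (RPKM 103), did not pass in any group.

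Of 18 proteoglycan and hyaluronan genes, 1 was rhythmic in ED, 0 in MD by edgeR (3 unadjusted, 0 by DESeq2) and 2 in EN. Podn, a small leucine-rich proteoglycan, peaked at ZT16.3 in ED (0.32 ± 0.0634, edgeR adjusted p = 0.0396) and at ZT14.0 in EN (0.32 ± 0.0616, adjusted p = 0.0246). Has2 had an amplitude of 0.83 ± 0.177 in EN with a peak at ZT23.6 (adjusted p = 0.0341), and 0.49 ± 0.177 and 0.22 ± 0.187 in ED and MD (adjusted p = 0.241 and 0.698). Has2 was lower in MD than in ED by mean level, with a log2 difference of -0.61 (edgeR adjusted p = 0.0109), the direction of Spon2. Of the 18 genes, 2 were called higher and 2 lower in this pair, beside 11.2% and 11.8% of all tested genes. With the L code as a term 0 genes were called. The abundant Dcn, Lum and Aspn, all small leucine-rich proteoglycans, did not pass the test of rhythm.

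Of 30 genes of TGF-beta and BMP signalling, 1 was rhythmic in each group. The ligand Bmp4 passed in ED (0.49 ± 0.0963, peak ZT16.8, edgeR adjusted p = 0.0292), the ligand Tgfb2 in MD (0.54 ± 0.125, peak ZT0.453, adjusted p = 0.0434) and Itgb3, an integrin subunit, in EN (0.40 ± 0.0866, peak ZT22.8, adjusted p = 0.046). The abundant members Tgfbi, Itgb1 and Tgfbr2 had amplitudes of 0.04 to 0.17 and did not pass. Of 23 collagens and other structural proteins, Col5a3 passed in EN (0.64 ± 0.134, peak ZT0.769, adjusted p = 0.0197), and 0 passed in ED or MD by edgeR (6 and 7 unadjusted, 3 and 1 by DESeq2). Of 19 clock genes tested, Arntl and Nr1d1 included, 10, 13 and 16 were rhythmic in ED, MD and EN.

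**Figure D4:**
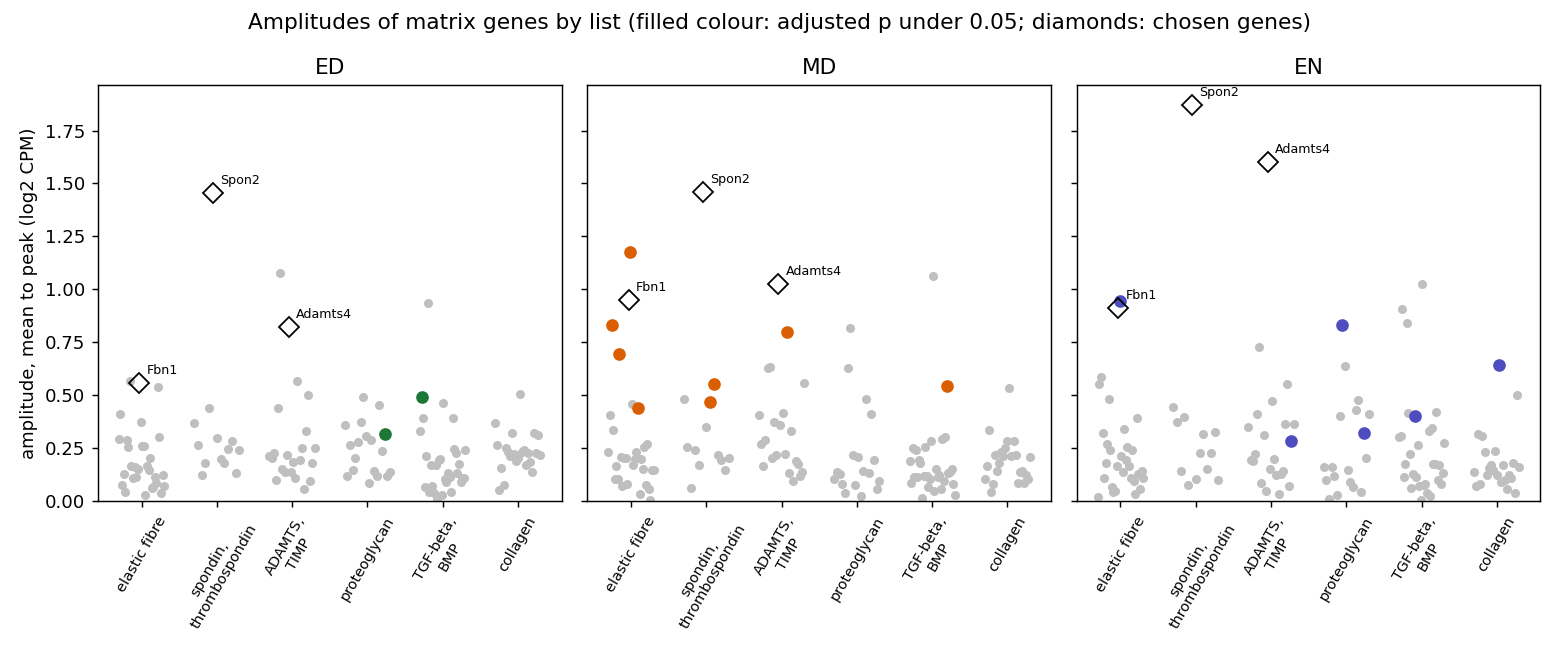
Fitted amplitude (log2, mean to peak) of every tested matrix gene by list in ED, MD and EN; each dot is 1 gene, coloured where its rhythm had an edgeR adjusted p under 0.05, and diamonds are Fbn1, Spon2 and Adamts4. Most genes lie below 0.50, and the diamonds of Spon2 lie highest in each panel.

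Dermal fibroblast markers were not called rhythmic by edgeR, which does not show that they lack a rhythm. Of the 13, 0 were called in any of the 3 groups by edgeR (1, 2 and 1 unadjusted, and 0, 1 and 0 by DESeq2). Their summed level had amplitudes of 0.22 ± 0.124, 0.14 ± 0.123 and 0.16 ± 0.127, with peaks at ZT17.2, ZT16.7 and ZT21.7 in ED, MD and EN. Expressed over that sum, Fbn1 had amplitudes of 0.76 ± 0.137, 0.91 ± 0.144 and 0.83 ± 0.135, close to or above those without it. Those of Spon2 were 1.63, 1.34 and 1.72, and those of Adamts4 0.95, 0.93 and 1.45. Peak times over the fibroblast sum were ZT3.79, ZT21.9 and ZT1.82 for Fbn1. Over the sum of the 11 markers without Col1a1 and Col3a1, a choice made after seeing the data, the amplitudes were 0.70 ± 0.104, 0.91 ± 0.110 and 1.01 ± 0.103 for Fbn1. They were 1.58, 1.40 and 1.98 for Spon2 and 0.92, 0.97 and 1.71 for Adamts4.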

How the data were processed

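RNA of pooled whole back skin was sequenced in 24 libraries, 8 for each of 3 feeding groups. The first deposited table gives raw read counts (whole numbers) of 31872 gene models, with exon, intron and antisense reads in rows of their own, per the file headers. The second deposited table holds RPKM values from cqn, per its name. The submitters' processing notes name TopHat2, SAMtools, HOMER and mm10. A role for any of them in read counting was not given in the sources used here. No column lacked a sample (0).

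Of models sharing a symbol the one with the highest exon total was kept (2114 rows left out). The 2 models of Spon2 differed by at most 2 exon reads. Symbols were kept by filterByExpr of edgeR (minimum count 10, minimum total 15) and scaled by TMM, and log2 CPM used a prior count of 2. Intron counts were scaled by the exon factors. Counts were tested with edgeR 4.0.16 (quasi-likelihood, Benjamini-Hochberg over all tested genes, threshold 0.05) in R 4.3.3. The model had a mean and a 24 h cosine and sine for each group (15 residual degrees of freedom). Amplitudes, peaks, mean differences and their standard errors came from least squares on log2 CPM in that model. Alternatives were DESeq2 1.42.0, limma 3.58.1 on log2 RPKM with 1 or 0.1 added, no filter, sampling time as a block, each group alone, no second day, and each library left out. The DESeq2 test of the 12 h component, the L code of the labels as a term and the fibroblast sum without its 2 collagens were added after seeing the data. The model fits were tested on simulated data.

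The members and gene lists were chosen with earlier results of these data known. Named genes were the members, Arntl and Nr1d1, in each list every gene rhythmic in a group and the 3 with the highest RPKM, and the 5 genes nearest to each member. Positions and exons are from GENCODE for GRCm38, and promoters from RefSeq (GRCm38.p6, matched for 1 of 3 members).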

Additional observations from a re-analysis of the deposited data

Results flagged for a closer look

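Single libraries stood far from the other 7 of their group in 3 of 27 checks of member levels and of exon reads per intron read. Since chance alone would mark about 1 in 20 such groups, and since the 8 libraries of a group are different times of a daily curve, these marks are given as values. Spon2 exon reads in MD reached 41.3 CPM at ZT20, with the next library at 20.7 CPM. Spon2 exon reads per intron read were 76 in MD at ZT4, where the intron count was 1, and the next value was 35. In EN they were 75.2 at ZT4, where the intron count was 5, and the next value was 24.7.

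The test of a different rhythm passed for 2 matrix list genes. For Col5a3, MD against ED, the adjusted p was 0.0338 (edgeR quasi-likelihood), with peaks at ZT19.1 in MD and ZT3.30 in ED and amplitudes of 0.54 and 0.51. For Fbn2, EN against MD, the adjusted p was 0.042, with peaks at ZT0.320 in EN and ZT20.0 in MD. The shares of all genes called in these pairs are 0.35% and 0.35%.

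Reads antisense to Adamts4 reached 26 in 1 library (EN ZT24) and were 1 in the lowest, against a limit of 3 counts that a count of 0 allows.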

How the results depend on the processing

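Over 288 alternatives, 276 amplitudes and 278 peak times of the members stayed within 1 standard error, and of 288 mean level differences 263 kept their call and 1 reversed it. Many alternatives left out a library of another feeding group, which hardly enters a group's own curve. Amplitudes and peak times could barely move in those, so their tally is a weak check. Spon2 lost its call for MD against ED in DESeq2 (-0.69), limma with 0.1 added (-0.69), without the second day (-0.64) and without ED ZT24 and EN ZT0 (-0.70), and for EN against MD without the second day (0.72). With the L code as a term both calls were lost (-0.27 and, reversed, -0.23). Leaving out 1 library gave -0.92 to -0.44, 0.56 to 1.03 and, for Fbn1 in EN against MD, -0.24 to -0.10. Counts of genes moved far more, and the cause was not tested.

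Rhythmic genes in ED, MD and EN numbered 388, 494 and 348 in DESeq2, 24, 78 and 64 without the second day, and 74, 23 and 298 with each group alone. They numbered 237 in MD and 323 in EN without a filter, and 61 in ED and 98 in EN without ED ZT24 and EN ZT0. Genes with a different rhythm (MD against ED, EN against ED, EN against MD) numbered 210, 272 and 243 in DESeq2, 83, 129 and 122 without a filter, and 16, 20 and 22 without the second day, with 34 in the last pair without those 2 pools. Matrix list genes in ED, MD and EN were 10 in ED by DESeq2, 4 in ED without a filter, 4 in MD by limma with 0.1 added, 0 in ED and 0 in EN without the second day, 1 in ED and 3 in EN without the 2 pools, and 0, 0 and 11 with each group alone. With the L code as a term, 12, 27 and 11 genes were rhythmic in these groups, 0, 3 and 0 of them on the matrix lists, 4, 1 and 1 had a different rhythm, and 0 a different mean level in any pair (882, 390 and 688 unadjusted). DESeq2 called 6 mean levels in EN against ED and 99 genes for the 12 h component.

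Leaving out 1 library gave 25 (without ED ZT12) to 153 rhythmic genes in ED, 51 (without MD ZT4) to 200 in MD and 43 (without EN ZT12) to 191 in EN. It gave 29 to 70, 33 to 122 and 22 to 72 genes with a different rhythm, 1981 (without MD ZT16) to 3943 with a different mean level in MD against ED, and 0 to 3, 2 to 9 and 0 to 6 matrix list genes. With sampling time as a block, which pairs pools by ZT only, genes with a different rhythm numbered 136 in EN against ED and 95 in EN against MD, and the block changed no call of a member's mean level. Depth limits Adamts4 and the introns of Spon2 and Adamts4.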
